A study of Mus musculus with 32 samples.

Results

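The 38 genes described here encode the enzymes and transporters that take glucose into the cell, break it down to pyruvate and lactate, divert it through the pentose phosphate pathway and pass pyruvate to the mitochondria. They were chosen by name, as a list of glycolysis, pentose phosphate and pyruvate genes matched to Ensembl gene identifiers. All 38 were found among the 47643 genes of the count table, of which 25444 had a count in any library. RNA came from epididymal white adipose tissue (eWAT) and liver of male C57BL/6 mice, 10 weeks old, that ate a normal protein diet (NPD, 20% of kcal as protein) or a high protein diet (HPD, 60% of kcal as protein). The mice drank corticosterone (cort, the main glucocorticoid of rodents) or 1% ethanol vehicle (veh) for 7 days. The groups were thus Veh NPD, Cort NPD, Veh HPD and Cort HPD in each tissue, with 4 libraries per group. The diets had the same calories, and the added whey protein of the HPD replaced corn starch, so an effect of more protein and one of less starch cannot be told apart. The comparisons asked whether cort changed these genes on each diet, whether the diet changed them with and without cort, and which isoform each tissue used.

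Glycolysis starts when a glucose transporter admits glucose and a hexokinase phosphorylates it, and its pace is set largely at phosphofructokinase, which the PFKFB enzymes control through fructose 2,6-bisphosphate. The pentose phosphate pathway branches off at glucose 6-phosphate and gives NADPH, which fat cells and liver cells use for lipid synthesis. Pyruvate is reduced to lactate by lactate dehydrogenase or enters the mitochondria, where pyruvate dehydrogenase turns it into acetyl-CoA unless pyruvate dehydrogenase kinases switch the complex off. Many of these steps have tissue isoforms. Liver is known for GLUT2 and the L-type pyruvate kinase, and fat for GLUT4 and hexokinase 2.

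The libraries held 9794683 to 18057936 counts in eWAT and 8933307 to 17447524 in the 15 liver libraries used, and the 38 genes took 0.313% to 0.685% and 0.107% to 0.197% of them. Values are CPM, counts divided by a library total that was scaled within each tissue. Since each transcript gives a tag at its 3′ end, CPM of different genes were set side by side without dividing by length. Reads that the counting lost or placed elsewhere would change such a comparison, and their part was not tested. Liver Veh HPD replicate 4 was left out throughout, so that group had 3 libraries. It stood apart from the others: its median correlation with the other liver libraries was 0.895 (0.946 to 0.962 for the 15), its summed level of 4 proliferation genes was 198 CPM (2.39 to 8.65), and its 8 hepatocyte genes summed to 42843 CPM (74146 to 257939). In eWAT, Cort HPD replicate 4 stood apart too, with a median correlation of 0.899 (0.949 to 0.958 for the other 15), and its 9 epididymis and testis genes summed to 6843 CPM, against a median of 0.521 over the 16 libraries. It was kept. The tissue labels held: the 7 adipocyte markers summed to 40607 to 79433 CPM in eWAT and to 189 to 4440 in the liver libraries used. Alb (albumin) in eWAT stood at 0.0865% of its liver level. Of the 8 hepatocyte genes Cyp2e1 went the other way, with a median of 2153 CPM in eWAT and 1163 in liver, and the rest were lower in eWAT. In such bulk samples fewer cells of a type and less RNA per cell cannot be told apart.

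The leading isoform differed between the tissues for the glucose transporters, pyruvate kinase and PFKFB (6-phosphofructo-2-kinase/fructose 2,6-bisphosphatase). Of the summed CPM of Hk1, Hk2 and Hk3 in eWAT, Hk2 (hexokinase 2, the insulin-responsive isoform of fat and muscle) held 87.0% on average (74.1% to 93.0% over 16 libraries). Glucose transport in eWAT was 80.7% Slc2a4 (GLUT4, the insulin-regulated transporter), with 12.7% Slc2a3 (GLUT3) and 5.94% Slc2a1 (GLUT1), and in liver 95.9% Slc2a2 (GLUT2, not among the 38). Of the summed CPM of Aldoa and Aldoc in eWAT, Aldoa held 99.8%. Pyruvate kinase was 99.9% Pkm in eWAT against 89.4% Pklr and 10.6% Pkm in liver. The counts per gene do not separate the M1 and M2 forms of Pkm, nor the L and R forms of Pklr.

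Phosphofructokinase was shared more evenly. In eWAT it was 56.0% Pfkl, 35.8% Pfkp and 8.14% Pfkm, and in liver 80.2% Pfkl, 15.1% Pfkm and 4.80% Pfkp, where the names give the liver, platelet and muscle forms. Pfkfb3, the form with high kinase activity that raises fructose 2,6-bisphosphate, held 88.2% of the PFKFB CPM in eWAT, and Pfkfb1, the liver form that protein kinase A turns into a phosphatase, held 81.8% in liver. Pdk2 led the pyruvate dehydrogenase kinases in both tissues, with 49.8% in eWAT and 59.1% in liver. The next was Pdk1, at 21.3% and 38.3%, while Pdk3 held 16.4% in eWAT and 0.471% in liver. Eno1 held 72.9% of enolase in eWAT and 80.2% in liver, Ldha held 92.4% and 99.5% of lactate dehydrogenase, and Pgam1 held 99.1% and 93.7% of phosphoglycerate mutase. In the left-out liver library Pkm made up 64.4% of pyruvate kinase, Pfkp 43.1% of phosphofructokinase and Slc2a1 28.3% of glucose transport.

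**Figure D1:**
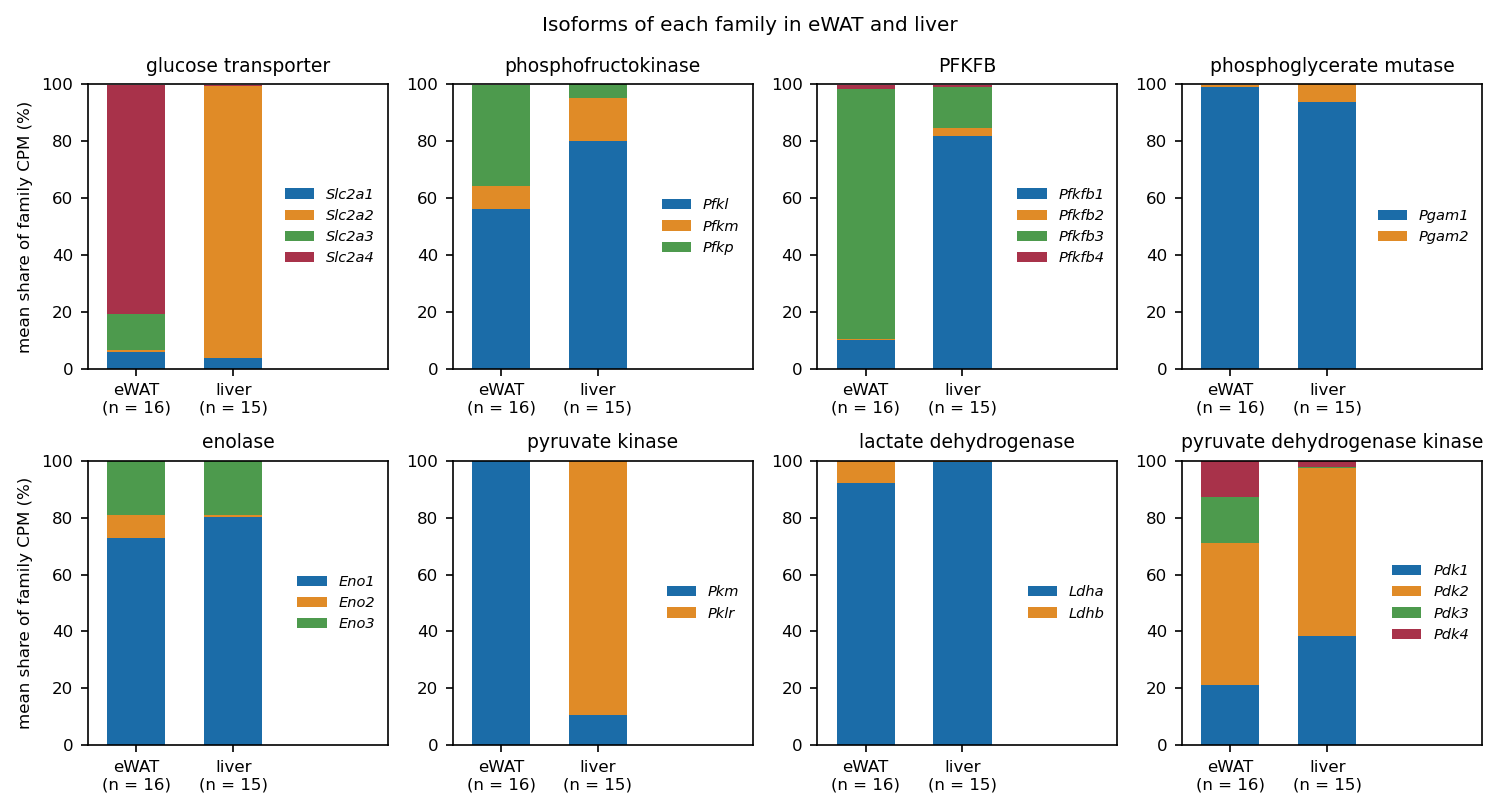
Mean share of the summed CPM (y axis, percent, from 0) that each isoform of 8 enzyme or transporter families held in eWAT (16 libraries) and liver (15 libraries). Slc2a4, Pfkfb3 and Pkm fill most of the eWAT bars of their families, and Slc2a2, Pfkfb1 and Pklr most of the liver bars.

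Shares also differed among groups of a tissue. Hk2 took 79.9% of the CPM of Hk1, Hk2 and Hk3 in Veh NPD eWAT, 84.8% in Veh HPD, 92.3% in Cort NPD and 91.0% in Cort HPD. Slc2a4 took 74.9%, 79.1%, 85.6% and 83.3% of glucose transport CPM in the same order. In liver, Pklr took 89.6% of pyruvate kinase CPM in Veh NPD, 83% in Veh HPD, 94.8% in Cort NPD and 88.6% in Cort HPD. These shares are descriptions and were not tested.

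Promoter sequences were in the RefSeq table of GRCm38.p6 for 36 of the 38 genes, all but Slc2a3 and Slc2a4. Both strands were searched for CACGTG (the E-box), ACGTG (the core of the hypoxia response element, which every E-box contains) and the full glucocorticoid response element (AGAACA and TGTTCT, 3 bases apart). The counts took in each full sequence of the table (a window), which runs from 250 bases before a RefSeq start to past it. A counted match can thus lie after a start. The E-box was in 6 of the 36 genes, or 16.7%, and in 8.09% of all 27025 genes of the table. Counted by window, since the 36 genes had 57 of the 32851 windows, it was in 10.5% against 7.15%. ACGTG was in 19 genes, or 52.8%, against 21.8%, and by window in 40.4% against 19.6%, and the glucocorticoid element was in 0 of the 36 and in 3 genes of the table. A search for a form of the carbohydrate response element (CACGGG and CCCGTG, 5 bases apart) was added after the Pklr sequence had been seen, and matched Pklr and no other gene of the table. The Pklr match was thus known in advance. Looser forms of the element were not searched, so other genes may hold those. Of 1 window each of 4 genes, the part before the start is printed, 5′ to 3′. These are genes that the results turn on: Pklr for liver, Pfkfb3 and Hk2 for eWAT, and Ldha for the E-box itself. Capitals mark the matched letters. Each printed part lies before 1 RefSeq start of its gene and holds none of its GENCODE exons, for which the last 51 bases before the start were cut for Pklr and the last 11 for Pfkfb3. The windows of Pklr, Pfkfb3 and Ldha belong to starts that lie downstream of the first start that GENCODE gives for the gene. A match is a description of these letters and not of a bound site.
Pklr chr3:89136373-89136571 (plus strand): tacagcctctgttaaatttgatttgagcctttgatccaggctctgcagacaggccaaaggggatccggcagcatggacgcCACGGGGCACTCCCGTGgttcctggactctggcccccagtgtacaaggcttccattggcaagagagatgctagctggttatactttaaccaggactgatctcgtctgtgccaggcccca
Pfkfb3 chr2:11502102-11502340 (minus strand): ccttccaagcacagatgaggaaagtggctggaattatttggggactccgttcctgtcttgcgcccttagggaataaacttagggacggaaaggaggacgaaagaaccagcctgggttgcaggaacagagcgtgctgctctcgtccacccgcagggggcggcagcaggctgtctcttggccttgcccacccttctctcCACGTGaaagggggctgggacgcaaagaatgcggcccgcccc
Hk2 chr6:82774455-82774704 (minus strand): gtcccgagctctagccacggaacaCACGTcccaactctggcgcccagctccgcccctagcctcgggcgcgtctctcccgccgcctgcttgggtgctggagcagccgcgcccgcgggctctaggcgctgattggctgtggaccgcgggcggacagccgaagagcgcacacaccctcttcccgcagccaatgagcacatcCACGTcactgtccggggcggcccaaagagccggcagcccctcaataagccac
Ldha chr7:46845554-46845803 (plus strand): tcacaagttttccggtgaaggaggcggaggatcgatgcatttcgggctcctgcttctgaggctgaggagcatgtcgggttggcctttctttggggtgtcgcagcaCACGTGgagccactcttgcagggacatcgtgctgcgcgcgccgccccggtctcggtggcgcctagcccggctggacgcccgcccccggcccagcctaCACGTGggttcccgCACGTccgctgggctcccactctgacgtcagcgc
In Pklr the match begins 170 bases before the RefSeq start. The E-box of Pfkfb3 begins 53 bases before it, those of Ldha 145 and 48 bases before it, and the ACGTG cores of Hk2 226 and 52 bases before it.

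Cort on the NPD raised 13 of the 37 genes tested in eWAT and lowered 1, Hk1 (adjusted p under 0.05, edgeR's quasi-likelihood test on the counts of all 15187 genes tested). A gene passed, or was called, by that test unless another tool is named. Over all genes tested, 4.05% rose and 3.93% fell. The genes that rose included GLUT4 (Slc2a4), hexokinase 2, the first enzymes of the pentose phosphate pathway, Pfkfb3 and enzymes of upper glycolysis. The median log2 fold change of the 37 was 0.43, against −0.02 over all genes, and 22 (59.5%, against 20.3% of all genes) had an unadjusted p under 0.05. Summed over the 38 genes, the CPM was 4362 ± 372 (SD, n = 4) in Veh NPD and 6779 ± 266 in Cort NPD. Pklr was not tested in eWAT, where its highest count was 26 in any library.

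Among the genes that rose were 2 of the entry step, Slc2a4 and Hk2. Slc2a4 stood at 80.1, 60.5, 74.7 and 86.3 CPM in Veh NPD, 88.1, 75.4, 72.6 and 164 in Veh HPD, 169, 141, 151 and 202 in Cort NPD and 122, 132, 138 and 151 in Cort HPD. The Veh NPD and Cort NPD groups did not overlap, and its log2 fold change was 1.14 (adjusted p = 0.00120, SE 0.20). Hk2, which phosphorylates glucose, stood at 95.2, 91.6, 79.1 and 96.4 CPM in Veh NPD, 95.2, 111, 105 and 148 in Veh HPD, 164, 156, 153 and 189 in Cort NPD and 179, 155, 168 and 169.8 in Cort HPD. It rose by a log2 fold change of 0.87 (adjusted p = 5.32e-05, SE 0.13), again without overlap. Hk1, the hexokinase found in most tissues, went the other way, from 19.5, 20.0, 26.5 and 15.9 CPM in Veh NPD to 12, 13, 10.9 and 13.1 in Cort NPD (Veh HPD 24.1, 16.5, 15.8 and 14.5, Cort HPD 10.7, 18.4, 14 and 18). It fell, with a log2 fold change of −0.74 (adjusted p = 0.0306, SE 0.22), but the call was lost without any 1 of Veh NPD replicates 1, 2 and 3 and Cort NPD replicates 1, 2, 3 and 4 (adjusted p up to 0.148). Libraries listed in this way were left out 1 at a time. Such a fit can change the calls of all genes, whose share is given for the main fits only.

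In the pentose phosphate pathway, both enzymes that make NADPH rose. G6pdx (glucose-6-phosphate dehydrogenase, the committed step) stood at 102, 121, 88.1 and 107 CPM in Veh NPD, 76.8, 65.9, 81 and 108 in Veh HPD, 223, 239, 188 and 196 in Cort NPD and 180.3, 187, 178 and 193 in Cort HPD. Each Cort NPD library was above each Veh NPD library, with a log2 fold change of 1.02 (adjusted p = 1.31e-05, SE 0.14). Pgd (6-phosphogluconate dehydrogenase, the next NADPH-making step) stood at 242, 202, 207 and 285 CPM in Veh NPD, 165, 144, 176 and 283 in Veh HPD, 550.1, 472, 476 and 533 in Cort NPD and 363, 388, 324 and 284 in Cort HPD. It also rose without overlap, by 1.12 (adjusted p = 6.48e-05, SE 0.17) on the log2 scale. Taldo1 (transaldolase, of the non-oxidative branch) rose by 0.52 (adjusted p = 0.0183, SE 0.14), a call lost without Veh NPD replicates 3 and 4 and Cort NPD replicates 1 and 3 (adjusted p up to 0.0691). Tkt (transketolase, its partner) and Rpia (ribose 5-phosphate isomerase) did not pass, at log2 fold changes of −0.31 and −0.19.

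Of the glycolytic enzymes, 4 of the 7 of upper glycolysis rose. Gpi1 (glucose-6-phosphate isomerase) stood at 91, 83.2, 83.1 and 89.6 CPM in Veh NPD, 89.6, 82.5, 83.7 and 102 in Veh HPD, 145, 119, 139 and 129 in Cort NPD and 112, 118, 111 and 116 in Cort HPD, and its log2 fold change under cort on the NPD was 0.62 (adjusted p = 0.000552, SE 0.11). Pfkl (liver phosphofructokinase) stood at 65.5, 58, 64.3 and 55.3 CPM in Veh NPD, 47.3, 42.8, 47.6 and 75.1 in Veh HPD, 114, 108, 111 and 96 in Cort NPD and 47.6, 60.7, 66.3 and 64.2 in Cort HPD, with a log2 fold change of 0.82 (adjusted p = 0.000652, SE 0.15). Cort NPD was the high group for Pfkl, and the Cort HPD libraries lay among those of the veh groups. Aldoa (aldolase A) stood at 904, 829, 769.7 and 897 CPM in Veh NPD, 572, 504, 560.5 and 983 in Veh HPD, 1773, 1524, 1471 and 1759 in Cort NPD and 946, 1036, 901 and 915 in Cort HPD and rose by 0.94 (adjusted p = 0.000195, SE 0.15). Pfkfb3 stood at 271, 305, 343 and 208 CPM in Veh NPD, 304, 268, 226 and 359 in Veh HPD, 445, 688, 645 and 518 in Cort NPD and 761, 655, 806 and 594 in Cort HPD. Both cort groups lay above both veh groups for Pfkfb3, and its log2 fold change on the NPD was 1.03 (adjusted p = 0.000195, SE 0.16).

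Tpi1 (triosephosphate isomerase) and Pkm (pyruvate kinase M, the last step of glycolysis) rose less, by 0.44 (adjusted p = 0.0160, SE 0.12) and 0.52 (adjusted p = 0.0120, SE 0.13). The Tpi1 call was lost without Veh NPD replicate 3 and Cort NPD replicate 1 (adjusted p up to 0.0737), and the Pkm call without Veh NPD replicate 3 and Cort NPD replicate 1 (adjusted p up to 0.0567). Pkm stood at 209.9, 212, 176 and 226 CPM in Veh NPD, 139, 144, 165 and 225 in Veh HPD, 326, 276, 271 and 312 in Cort NPD and 185, 195, 183 and 185 in Cort HPD. Around pyruvate dehydrogenase, Dlat (its E2 subunit) stood at 81.5, 95.7, 79.3 and 91 CPM in Veh NPD, 75.8, 66.5, 67.6 and 129.7 in Veh HPD, 169, 145, 160.0 and 158 in Cort NPD and 97.4, 106, 81.4 and 78.9 in Cort HPD and rose by 0.86 (adjusted p = 0.00104, SE 0.16). Pdk3, one of the kinases that switch the complex off, rose by 0.66 (adjusted p = 0.0209, SE 0.18), a call lost without Veh NPD replicates 1, 3 and 4 and Cort NPD replicates 1 and 4 (adjusted p up to 0.0748). The E1 subunits Pdha1 and Pdhb had log2 fold changes of 0.39 and 0.68 with adjusted p = 0.169 and 0.230. Without Veh NPD replicate 3, or without Cort NPD replicate 1, 9 of the 37 genes were called in place of 14.

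The isoforms that lead the other families in eWAT did not pass on the NPD. Ldha (lactate dehydrogenase A, which favours lactate) stood at 448, 429, 324 and 411 CPM in Veh NPD, 271, 188, 282 and 332 in Veh HPD, 592, 544, 505 and 535 in Cort NPD and 401, 431, 358 and 343 in Cort HPD, with a log2 fold change of 0.43 (adjusted p = 0.0573, SE 0.14). DESeq2 and limma's voom called it, at adjusted p = 0.0320 and 0.0492. Eno1 (enolase 1) stood at 14.9, 21.6, 13.6 and 13.1 CPM in Veh NPD, 15.8, 9.77, 9.60 and 12.3 in Veh HPD, 15.6, 19.8, 17 and 20.4 in Cort NPD and 24, 15.9, 17.1 and 20.3 in Cort HPD, and Pgam1 (phosphoglycerate mutase 1) at 7.78, 2.01, 3.90 and 7.51 CPM in Veh NPD, 3.30, 3.13, 5.87 and 5.90 in Veh HPD, 6.45, 7.56, 10.6 and 6.05 in Cort NPD and 4.28, 5.69, 6.98 and 5.79 in Cort HPD. Pdk2 stood at 68.6, 72.1, 39.7 and 38.6 CPM in Veh NPD, 65.1, 99.7, 63.4 and 104 in Veh HPD, 77.1, 73.1, 82.7 and 40.2 in Cort NPD and 84.9, 70.2, 82.7 and 72.1 in Cort HPD. The Veh NPD and Cort NPD libraries overlapped for Eno1, Pgam1 and Pdk2, with log2 fold changes of 0.21, 0.53 and 0.32.

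On the HPD, cort raised 9 of the 37 genes in eWAT and lowered 0. The share of all genes tested was 3.46% higher and 2.63% lower, and 14 of the 37 (37.8%, against 18.9% of all genes) had an unadjusted p under 0.05. Their median log2 fold change was 0.16, against 0.00 over all genes. G6pdx, Pfkfb3, Pgd, Hk2 and Tpi1 rose, and their calls stood without any 1 library, while Slc2a4, Gpi1, Pfkl and Dlat, which rose on the NPD, had log2 fold changes of 0.44, 0.35, 0.17 and 0.10 and did not pass with edgeR. DESeq2 and limma's voom called Gpi1 (adjusted p = 0.0192 and 0.0489), and the replicate block called Slc2a4 (adjusted p = 0.0350). The summed CPM was 3672 ± 1070 (SD, n = 4) in Veh HPD and 4967 ± 209 in Cort HPD. The 2 diets' comparisons set different libraries against each other and shared 1 estimate of the spread. Without Cort HPD replicate 4, the library with epididymis RNA, 8 genes were called. Both epididymis and testis genes that were tested were called higher here, and their part was not tested.

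For G6pdx, whose libraries are given above, cort on the HPD gave a log2 fold change of 1.15 (adjusted p = 2.71e-06, SE 0.14), and for Pfkfb3 1.28 (adjusted p = 1.43e-05, SE 0.17). Pgd rose by 0.82 (adjusted p = 0.00234, SE 0.16) and Hk2 by 0.55 (adjusted p = 0.00822, SE 0.13). In these 4 genes every Cort HPD library was above every Veh HPD library. Tpi1 stood at 166, 168, 151 and 174 CPM in Veh NPD, 124, 102, 111 and 125 in Veh HPD, 247, 224, 195 and 228 in Cort NPD and 199.8, 197, 172 and 157 in Cort HPD, and rose by 0.65 (adjusted p = 0.000714, SE 0.12). Gapdh (glyceraldehyde-3-phosphate dehydrogenase, the first step of lower glycolysis) stood at 49.5, 70.1, 52.6 and 46.2 CPM in Veh NPD, 24.9, 24.4, 26.5 and 27.1 in Veh HPD, 72.9, 67.2, 63.6 and 81.5 in Cort NPD and 37.1, 45.3, 37.6 and 33.9 in Cort HPD. Its libraries on the HPD did not overlap, and it rose by 0.58 (adjusted p = 0.0126, SE 0.14), a call lost without Cort HPD replicate 2 (adjusted p up to 0.0607).

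The other calls on the HPD were lost in several of the fits that left out 1 library, whichever group it came from. Aldoa rose by 0.54 (adjusted p = 0.0331, SE 0.15), but Veh HPD replicate 4, at 983 CPM, lay among the Cort HPD libraries, and the call was lost without Veh HPD replicates 1, 2 and 3 and Cort HPD replicates 1, 2 and 3 (adjusted p up to 0.140). Eno1 rose by 0.71 (adjusted p = 0.0482, SE 0.22), lost without Veh HPD replicates 2, 3 and 4 and Cort HPD replicates 1, 3 and 4 (adjusted p up to 0.173), and Ldha rose by 0.51 (adjusted p = 0.0270, SE 0.14), lost without Veh HPD replicates 1 and 2 and Cort HPD replicates 1 and 2 (adjusted p up to 0.130). Veh HPD replicate 4 was the highest Veh HPD library for Slc2a4, Pfkl, Aldoa, Pgd and Hk2. Without it 13 of the 37 genes were called: Gpi1, Pdha1, Pdhb, Taldo1 and Slc2a4 came in at log2 fold changes of 0.42, 0.35, 0.58, 0.51 and 0.78, and Eno1 went out. Without Veh HPD replicate 2, 6 were called.

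Markers of other cell types moved in eWAT with the same groups. The summed level of 6 red blood cell genes was 5252 to 9274 CPM in Veh HPD and 12687 to 25861 in Cort HPD, and 5 of the 6 genes were called higher. The 7 adipocyte markers summed to 52670 to 67836 CPM in Veh NPD and 40607 to 51614 in Cort NPD, and to 63571 to 79433 in Veh HPD and 45787 to 54843 in Cort HPD. On the NPD 2 of the 7 were called higher and 3 lower, and on the HPD 1 higher and 2 lower. The 6 macrophage genes summed to 837 to 938 CPM in Veh NPD and 693 to 919 in Cort NPD, with 3 called lower, and on the HPD, where the sums were 755 to 995 and 791 to 1087, 1 was higher and 2 lower. The 4 proliferation genes summed to 22.2 to 57.6 CPM in Veh NPD and 2.98 to 10.4 in Cort NPD, with 2 called lower, and the 6 skeletal muscle genes to 62.3 to 199 and 10.3 to 23.8 CPM, with 1 of 4 tested called lower. Whether these shifts had a part in the changes of the 38 genes was not tested.

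**Figure D2:**
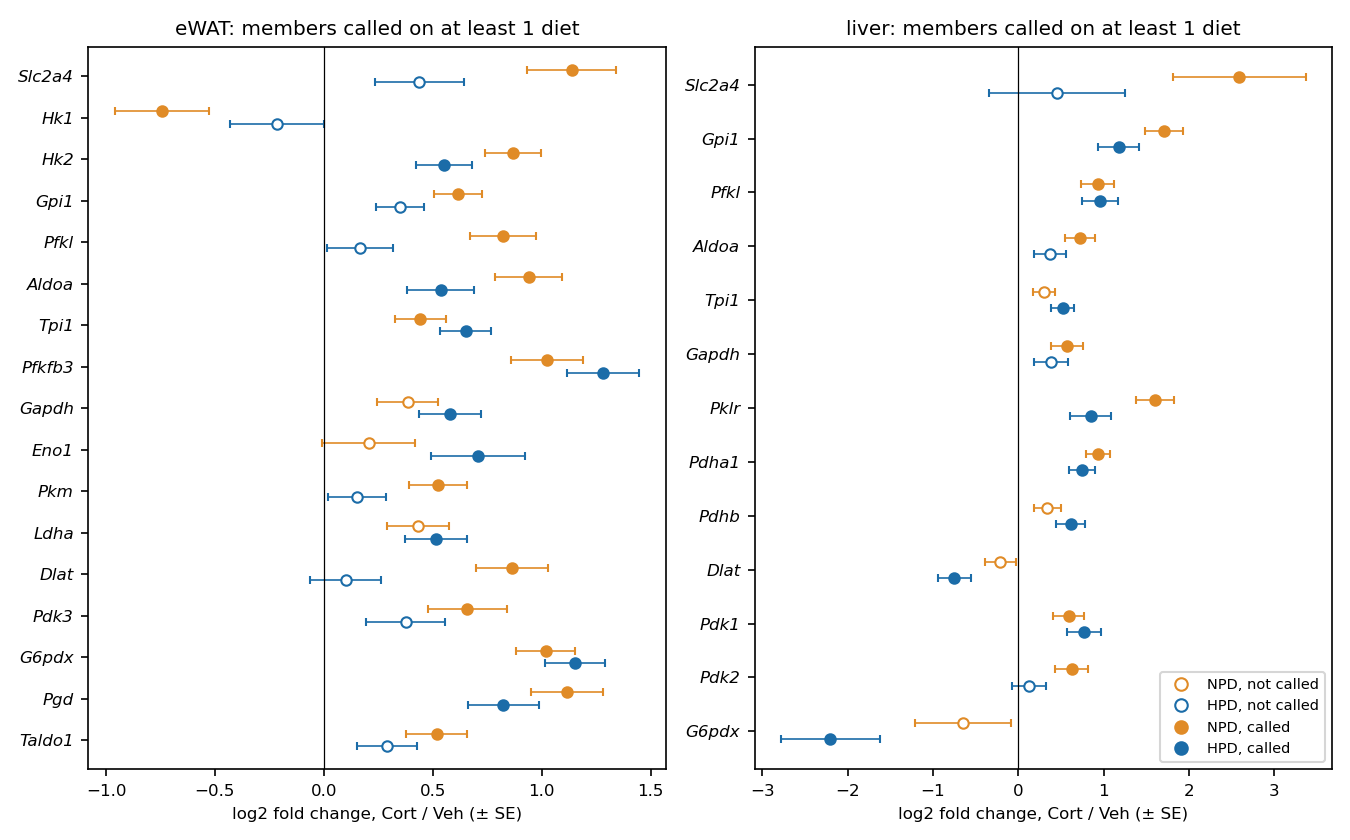
Log2 fold change of Cort against Veh (x axis, log2 units) with its SE (bars) for the genes called on at least 1 diet, in eWAT (left) and liver (right), with NPD in orange and HPD in blue and filled points for calls. In eWAT Slc2a4, Pfkl and Dlat lie farther right on the NPD (1.14, 0.82 and 0.86) than on the HPD (0.44, 0.17 and 0.10), but no difference between the diets passed the interaction test.

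The diet without cort moved few of the genes in eWAT. Gapdh was the 1 gene called lower of 37, and 0 were called higher, where 0.0461% and 0.0132% of all genes tested were. The Gapdh libraries of Veh NPD and Veh HPD, given above, did not overlap, and the log2 fold change was −1.08 (adjusted p = 0.000289, SE 0.14). The median of the 37 was −0.20, against 0.00 over all genes, and 12 (32.4%, against 8.03% of all genes) had an unadjusted p under 0.05. Without Veh HPD replicate 4, Aldoa and Ldha were called too, at log2 fold changes of −0.64 and −0.70, which gave 3 genes. DESeq2 also called 3 and a fit without the filter on low counts 2. The 3′ end of Gapdh matches 69 other genes of the annotation almost exactly, 67 of them pseudogenes. Over all 32 libraries Gapdh held 55.5 CPM and these copies 6.16 CPM in sum. The counting could also have lost reads that match several genes, which these values do not show. The level of Gapdh is thus uncertain by reads placed elsewhere or lost.

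Under cort, 6 of the 37 genes had a lower level on the HPD in eWAT and 0 were higher (0.283% and 0.204% of all genes tested). They were Pfkl, Aldoa, Gapdh, Pkm, Dlat and Pdk1, whose libraries did not overlap between Cort NPD and Cort HPD. Gapdh fell by 0.89 (adjusted p = 0.00200, SE 0.14) on the log2 scale and Pfkl fell by 0.85 (adjusted p = 0.00412, SE 0.15), and these calls stood without any 1 library. The median over the 37 was −0.30, against 0.02 over all genes. The Cort NPD libraries entered this comparison and that of cort on the NPD, so a gene high in those libraries moves in both.

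Aldoa fell by 0.78 (adjusted p = 0.0127, SE 0.15), lost without Cort NPD replicate 1 and Cort HPD replicate 3 (adjusted p up to 0.0712), and Pkm fell by 0.66 (adjusted p = 0.0143, SE 0.13), lost without Cort NPD replicates 1 and 4 and Cort HPD replicate 3 (adjusted p up to 0.0932). Dlat fell by 0.80 (adjusted p = 0.0191, SE 0.16), lost without Cort NPD replicates 1, 3 and 4 and Cort HPD replicates 3 and 4 (adjusted p up to 0.104). Pdk1, a kinase that inhibits pyruvate dehydrogenase, stood at 33.3, 35.7, 22.9 and 25.3 CPM in Veh NPD, 27.9, 24.7, 16.4 and 33 in Veh HPD, 47.4, 43, 41.8 and 38 in Cort NPD and 17.1, 20.3, 23.8 and 26.5 in Cort HPD. It fell by 0.95 (adjusted p = 0.0154, SE 0.19), lost without Cort NPD replicate 1 and Cort HPD replicate 1 (adjusted p up to 0.0886). Without Cort NPD replicate 1 the count of 6 fell to 2, without Cort HPD replicate 3 to 3, and without Cort HPD replicate 4, the library with epididymis RNA, to 5. The 6 red blood cell genes, all called higher on the HPD here, summed to 3619 to 6491 CPM in Cort NPD and 12687 to 25861 in Cort HPD, and their part in these results was not tested.

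Whether the cort response of eWAT differed between the diets was tested by the interaction, which called 0 of the 37 genes with edgeR, DESeq2 or limma's voom (0.0132% of all genes tested with edgeR). Unadjusted p was under 0.05 for 4 genes (10.8%, against 5.16% of all genes). These were Dlat, with a difference of the 2 log2 fold changes (HPD minus NPD) of −0.76, Pdk1 with −0.75, Slc2a4 with −0.70 and Pfkl with −0.66. The median of the differences was −0.25 over the 37 genes and 0.02 over all genes.

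**Figure D3:**
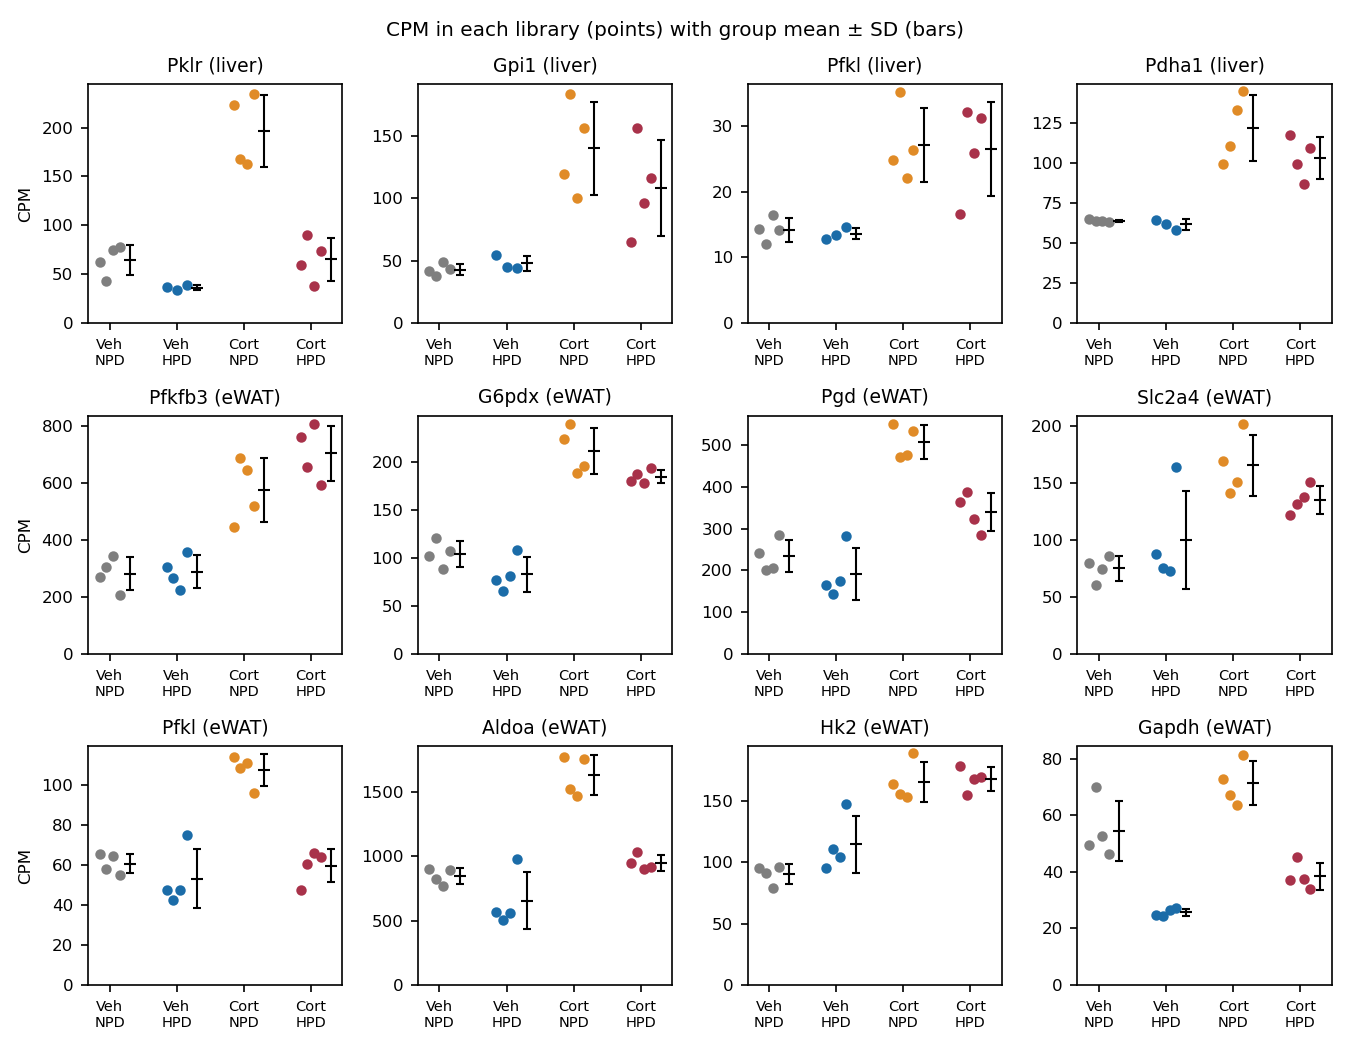
CPM in each library (points, y axis from 0) with the group mean and SD (bars) for 4 genes in liver and 8 in eWAT, by group along the x axis. In liver Pklr stands highest in Cort NPD (162 to 234 CPM), and in eWAT Pfkfb3 and G6pdx stand higher in both cort groups than in both veh groups.

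In liver, cort on the NPD raised 9 of the 37 genes tested and lowered 0, where 6.84% of the 12391 genes tested rose and 5.79% fell. The list was led by Gpi1, Pklr and Pdha1. The median log2 fold change of the 37 was 0.34, against −0.01 over all genes, and 19 (51.4%, against 26.7% of all genes) had an unadjusted p under 0.05. Their summed CPM was 1259 ± 18.9 (SD, n = 4) in Veh NPD and 1717 ± 132 in Cort NPD. Slc2a3 was not tested in liver, where its mean level was at most 0.274 CPM in any group.

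Gpi1 stood in liver at 41.7, 37.7, 49 and 43 CPM in Veh NPD, 54.9, 44.6 and 44.2 in Veh HPD, 119, 184, 101 and 156 in Cort NPD and 64.6, 157, 96.3 and 116 in Cort HPD. The cort libraries lay above the veh libraries of their diet on both diets, with log2 fold changes of 1.71 (adjusted p = 2.42e-05, SE 0.22) on the NPD and 1.18 (adjusted p = 0.00346, SE 0.24) on the HPD. Pklr (liver pyruvate kinase, the last step of glycolysis and a step that carbohydrate induces) stood at 62.9, 43.3, 74.4 and 78 CPM in Veh NPD, 36.4, 33.4 and 38.9 in Veh HPD, 223, 168, 162 and 234 in Cort NPD and 59.1, 90.0, 38.3 and 73.6 in Cort HPD. Its log2 fold change on the NPD was 1.61 (adjusted p = 4.92e-05, SE 0.22), with no overlap. Pfkl stood at 14.2, 12, 16.4 and 14.1 CPM in Veh NPD, 12.8, 13.4 and 14.5 in Veh HPD, 24.9, 35.1, 22 and 26.3 in Cort NPD and 16.5, 32.1, 25.9 and 31.2 in Cort HPD, and rose by 0.93 (adjusted p = 0.00239, SE 0.19) on the NPD and 0.96 (adjusted p = 0.00505, SE 0.21) on the HPD.

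Pdha1 (the E1 alpha subunit of pyruvate dehydrogenase) stood at 65, 63.7, 63.6 and 63 CPM in Veh NPD, 64.6, 61.7 and 58.3 in Veh HPD, 99.5, 111, 133 and 145 in Cort NPD and 117, 99.1, 86.5 and 109 in Cort HPD. It rose without overlap on both diets, by 0.93 (adjusted p = 9.24e-05, SE 0.14) and 0.74 (adjusted p = 0.00314, SE 0.15). Aldoa stood at 49.6, 46.6, 58.4 and 52.6 CPM in Veh NPD, 77.9, 61.7 and 54.7 in Veh HPD, 74.4, 92.1, 98.1 and 77.9 in Cort NPD and 55.4, 103, 82.6 and 94.9 in Cort HPD and rose on the NPD by 0.73 (adjusted p = 0.00732, SE 0.17). These calls stood without any 1 library.

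The other 4 genes that passed in liver on the NPD lost their calls in several of the fits that left out 1 library. Gapdh rose by 0.57 (adjusted p = 0.0438, SE 0.18), lost without Veh NPD replicates 1, 2, 3 and 4 and Cort NPD replicates 2, 3 and 4 (adjusted p up to 0.134). Pdk1 stood at 31.2, 29.5, 37.4 and 50.1 CPM in Veh NPD, 24.7, 29.2 and 32.3 in Veh HPD, 51.6, 63.3, 45 and 63.6 in Cort NPD and 58.8, 55.1, 38.1 and 44.5 in Cort HPD and rose by 0.59 (adjusted p = 0.0328, SE 0.18), lost without Veh NPD replicates 1, 2 and 3 and Cort NPD replicates 2 and 4 (adjusted p up to 0.128). Pdk2 stood at 49.2, 34.9, 60.3 and 49 CPM in Veh NPD, 61, 67.9 and 82.6 in Veh HPD, 94.9, 81.4, 63.7 and 58.8 in Cort NPD and 55, 79.8, 90.3 and 83.1 in Cort HPD, rose by 0.63 (adjusted p = 0.0309, SE 0.19) with overlapping libraries, and was lost without Veh NPD replicates 1, 2 and 4 and Cort NPD replicates 1 and 2 (adjusted p up to 0.131). Without Veh NPD replicate 1 or 2, 5 genes were called in place of 9.

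Pgd lay close to the threshold in liver, at 22.8, 15.6, 20.0 and 26 CPM in Veh NPD, 34.5, 16.4 and 15.1 in Veh HPD, 36, 47.3, 32 and 76.2 in Cort NPD and 29.4, 73.2, 31.3 and 46.6 in Cort HPD. Its log2 fold change was 1.18 (adjusted p = 0.0504, SE 0.37) on the NPD and 1.03 (adjusted p = 0.126, SE 0.40) on the HPD. On the NPD it was called by DESeq2 (adjusted p = 0.00297), limma's voom (adjusted p = 0.0258) and edgeR with RLE factors (adjusted p = 0.0496) or the replicate block (adjusted p = 0.0422), and on the HPD by DESeq2 (adjusted p = 0.0231).

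The last of the 4 was Slc2a4, at 0.316, 0.319, 0 and 0.761 CPM in Veh NPD, 0.223, 0.778 and 1.08 in Veh HPD, 0.308, 0.949, 5.22 and 2.13 in Cort NPD and 0.509, 0.872, 1.38 and 0.965 in Cort HPD. It rose by 2.59 (adjusted p = 0.0341, SE 0.78), which rested on few counts, and the groups overlapped. The call was lost without Veh NPD replicates 1, 2 and 3 and Cort NPD replicates 3 and 4 (adjusted p up to 0.183), and without Cort NPD replicate 3 the log2 fold change was 1.68 (adjusted p = 0.183). That library also held the most RNA of 6 skeletal muscle genes, 478 CPM in sum against at most 42.3 in the other liver libraries used, and the part of muscle RNA in the Slc2a4 value was not tested.

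On the HPD, cort raised 7 of the 37 genes in liver and lowered 2 (4.75% and 5.14% of all genes tested), and 14 (37.8%, against 24.3% of all genes) had an unadjusted p under 0.05. Their median log2 fold change was 0.13, against 0.00 over all genes. Besides Gpi1, Pfkl and Pdha1, the genes that rose were Pklr, Tpi1, Pdhb and Pdk1, and Dlat and G6pdx fell. Summed CPM was 1212 ± 58.7 (SD, n = 3) in Veh HPD and 1550 ± 132 (n = 4) in Cort HPD. Without Veh HPD replicate 1, 4 genes were called.

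Tpi1 stood in liver at 114, 122, 124 and 136 CPM in Veh NPD, 139.9, 134 and 151 in Veh HPD, 142, 177, 147 and 145 in Cort NPD and 194, 212, 216 and 190.2 in Cort HPD. It rose on the HPD by 0.52 (adjusted p = 0.0196, SE 0.14) without overlap, lost without Veh HPD replicates 1 and 2 (adjusted p up to 0.0796). Pdhb (the E1 beta subunit) stood at 135, 129, 103 and 134 CPM in Veh NPD, 111, 124 and 118 in Veh HPD, 149, 129, 171 and 185 in Cort NPD and 178, 236, 143 and 163 in Cort HPD and rose by 0.61 (adjusted p = 0.0285, SE 0.17), lost without Veh HPD replicates 1, 2 and 3 and Cort HPD replicate 2 (adjusted p up to 0.117). Pdk1 rose by 0.78 (adjusted p = 0.0148, SE 0.20), lost without Veh HPD replicate 1 (adjusted p up to 0.0932). Pklr rose by 0.85 (adjusted p = 0.0296, SE 0.24), but Cort HPD replicate 3, at 38.3 CPM, lay within the range of Veh HPD, and the call was lost without Veh HPD replicates 1, 2 and 3 and Cort HPD replicates 1, 2 and 4 (adjusted p up to 0.101). It was also lost with all liver libraries and with the replicate block (adjusted p up to 0.0660).

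Dlat (the E2 subunit) stood in liver at 23, 23.6, 24.8 and 34.7 CPM in Veh NPD, 44, 33.4 and 36.4 in Veh HPD, 19.8, 23.2, 21.8 and 26.9 in Cort NPD and 17.5, 27.4, 17.4 and 27.8 in Cort HPD. Unlike the E1 subunits, on the HPD it fell by 0.75 (adjusted p = 0.0172, SE 0.20) on the log2 scale, lost without Veh HPD replicate 1 and Cort HPD replicate 3 (adjusted p up to 0.0993). G6pdx was low in liver, at 1.03, 2.55, 1.82 and 3.38 CPM in Veh NPD, 10.7, 3.02 and 1.49 in Veh HPD, 1.39, 1.90, 0.908 and 1.40 in Cort NPD and 1.02, 0.465, 0.842 and 2.15 in Cort HPD. It fell, with a log2 fold change of −2.20 (adjusted p = 0.0218, SE 0.58) and overlapping groups, and the call was lost without Veh HPD replicate 1 and Cort HPD replicates 1, 2 and 3 (adjusted p up to 0.308). Without Veh HPD replicate 1, the highest library, the log2 fold change was −1.01. That library also had the highest sum of 5 B cell genes among the liver libraries used, 19.0 CPM against at most 11.3 in the rest of its group, and of 4 exocrine pancreas genes, 106 CPM against at most 34.1, and their part was not tested.

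Other cell types moved in liver with cort. The 6 macrophage genes summed to 113 to 187 CPM over the veh groups and to 54.1 to 132 over the cort groups, with 2 of 5 tested called lower on the NPD and 1 on the HPD. The 8 hepatocyte genes summed to 74146 to 111893 CPM over the veh groups, 108731 to 132566 in Cort NPD and 152448 to 257939 in Cort HPD. On the NPD 2 of the 8 were called higher and 2 lower, and on the HPD 5 higher and 1 lower. On the HPD the 6 red blood cell genes summed to 1913 to 3469 CPM in Veh HPD and 5272 to 7625 in Cort HPD, with 2 called higher and 1 lower, and the 3 endothelial genes to 54.0 to 68.2 and 26.2 to 39.1 CPM, with 2 called lower. The 4 exocrine pancreas genes summed to 32.7 to 106 CPM over the veh groups and 17.0 to 23.9 over the cort groups, with 1 of 3 tested called lower on each diet. The part of these genes in the results above was not tested.

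The diet without cort called 0 of the 37 genes in liver with edgeR, DESeq2 or limma's voom (0.169% of all genes tested), 7 (18.9%, against 9.40% of all genes) had an unadjusted p under 0.05, and the median was 0.16. Under cort, 1 gene was higher on the HPD and 1 lower (3.08% and 2.8% of all genes tested). Unadjusted p was under 0.05 for 7 of the 37 (18.9%), a smaller share than the 21.3% of all genes. The median log2 fold change was −0.16, against −0.01 over all genes. Pklr fell by 1.59 (adjusted p = 0.000285, SE 0.22) on the log2 scale. Its Cort HPD libraries, at 38.3 to 90.0 CPM, all lay below its Cort NPD libraries, at 162 to 234 CPM, and the call stood without any 1 library. Aldoc (aldolase C, the brain form) stood at 6.09, 2.76, 5.02 and 6.34 CPM in Veh NPD, 12.6, 9.68 and 11.9 in Veh HPD, 5.23, 4.83, 1.97 and 4.62 in Cort NPD and 4.66, 11.2, 7.96 and 12.5 in Cort HPD. It rose by 1.13 (adjusted p = 0.0353, SE 0.31) with overlapping groups, and was lost without Cort NPD replicates 2, 3 and 4 and Cort HPD replicates 2, 3 and 4 (adjusted p up to 0.0997). DESeq2 and limma's voom also called Tpi1 higher, at 0.42 (adjusted p = 0.00698 and 0.0435). The 6 red blood cell genes, of which 3 were called higher and 1 lower here, summed to 1358 to 3544 CPM in Cort NPD and 5272 to 7625 in Cort HPD, and their part was not tested.

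The interaction in liver called 0 of the 37 genes with edgeR, DESeq2 or limma's voom (0.113% of all genes tested with edgeR), and 2 (5.41%), a smaller share than the 12.1% of all genes, had an unadjusted p under 0.05. For Pklr the difference of its cort responses (HPD minus NPD) was −0.76 and did not pass (adjusted p = 0.347).

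The isoforms that lead other families in liver were set beside these values. Slc2a2, which is not among the 38, stood at 101, 111, 164 and 144 CPM in Veh NPD, 93.5, 127 and 196 in Veh HPD, 228, 236, 267 and 310.0 in Cort NPD and 162, 218, 206 and 215 in Cort HPD and rose on the NPD by 1.0 (adjusted p = 0.00166, SE 0.20).

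Ldha in liver stood at 315, 414, 309.7 and 247 CPM in Veh NPD, 231, 243 and 214 in Veh HPD, 206, 259.5, 217 and 263 in Cort NPD and 243, 175, 237 and 223 in Cort HPD. Its log2 fold change under cort was −0.44 on the NPD and −0.06 on the HPD, and neither passed with edgeR (adjusted p = 0.0731 and 0.865), while DESeq2 called it on the NPD (adjusted p = 0.0462). Pfkfb1 stood at 37.5, 31.5, 27.8 and 47.3 CPM in Veh NPD, 39.9, 34.1 and 31.6 in Veh HPD, 49.3, 41.1, 47.1 and 37.2 in Cort NPD and 29.2, 37.4, 40.9 and 38.8 in Cort HPD, Eno1 at 9.01, 7.54, 8.57 and 10.7 CPM in Veh NPD, 10.6, 9.68 and 8.78 in Veh HPD, 11.5, 10.9, 6.96 and 9.60 in Cort NPD and 10.6, 11.4, 7.65 and 10.5 in Cort HPD, and Pgam1 at 3.24, 2.76, 3.55 and 3.04 CPM in Veh NPD, 3.96, 3.46 and 3.72 in Veh HPD, 4.77, 7.59, 4.16 and 4.92 in Cort NPD and 3.22, 6.75, 8.88 and 7.65 in Cort HPD. No comparison of cort or diet in liver called Pfkfb1, Eno1 or Pgam1 with edgeR, and DESeq2 called Pgam1 for cort on the HPD, at 0.84 (adjusted p = 0.0455).

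**Figure D4:**
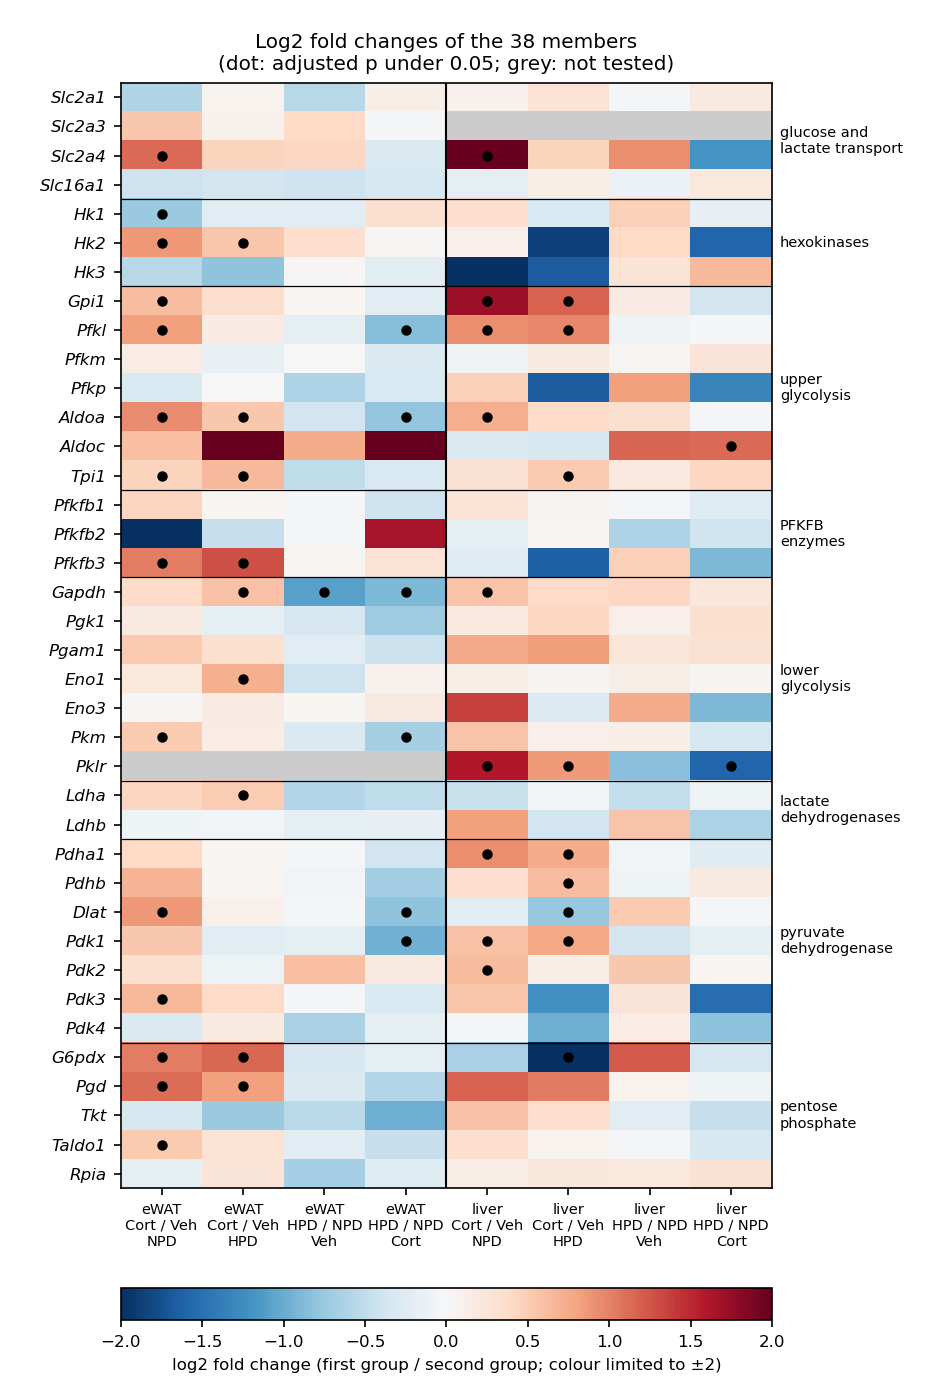
Log2 fold changes (colour, limited to ±2) of the 38 genes in rows, grouped by role, for 4 comparisons in eWAT and 4 in liver in columns, with a dot where adjusted p was under 0.05 and grey where a gene was not tested. Dots gather in the columns of cort against veh. The 2 columns of the diet without cort hold 1 dot, for Gapdh in eWAT.

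The cort responses of the tissues were compared in 1 fit of all 31 libraries, with no term for the mouse. On the NPD, 1 of the 38 genes responded more in liver than in eWAT and 2 less (2.51% and 1.35% of all genes tested). The difference of log2 fold changes (liver minus eWAT) was 1.13 (adjusted p = 0.00568, SE 0.25) for Gpi1, −0.83 (adjusted p = 0.0253, SE 0.22) for Ldha and −1.03 (adjusted p = 0.0183, SE 0.26) for Dlat. Ldha was lost without eWAT Veh NPD replicate 3, liver Veh NPD replicate 2 and liver Cort NPD replicates 1 and 3 (adjusted p up to 0.0850), and Dlat without liver Veh NPD replicate 4 (adjusted p up to 0.0612). Dlat rose in eWAT on this diet, while in liver its log2 fold change was −0.21.

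On the HPD, 2 of the 38 genes responded less in liver and 0 more (2.01% and 1.11% of all genes tested). The difference was −2.95 (adjusted p = 0.00208, SE 0.54) for Pfkfb3 and −3.43 (adjusted p = 0.000845, SE 0.58) for G6pdx, both of which rose in eWAT. Pfkfb3 in liver stood at 3.08, 17.7, 3.81 and 6.93 CPM in Veh NPD, 7.03, 13.3 and 12.4 in Veh HPD, 5.85, 3.88, 10.1 and 6.02 in Cort NPD and 2.80, 3.90, 2.14 and 5.05 in Cort HPD, with a log2 fold change of −1.64 (adjusted p = 0.0707, SE 0.53) on the HPD, which DESeq2 and limma's voom called (adjusted p = 0.0363 and 0.0266). The G6pdx difference was −2.20 (adjusted p = 0.00591) without liver Veh HPD replicate 1. Without liver Cort HPD replicate 1, 4 genes were called. The diet effect under cort was higher in liver than in eWAT for 2 of 38 genes and lower for 0 (0.382% and 0.843%). The difference was 1.09 (adjusted p = 0.0157, SE 0.24) for Gapdh and 0.68 (adjusted p = 0.0358, SE 0.17) for Tpi1, and Tpi1 was lost without eWAT Cort NPD replicate 1, eWAT Cort HPD replicate 4, liver Cort NPD replicates 1, 3 and 4 and liver Cort HPD replicates 2 and 3 (adjusted p up to 0.0764), and on library totals.

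Between the tissues of Veh NPD mice, 9 of the 38 genes were higher in liver, 19 lower and 10 did not pass (29% and 33.7% of all genes tested were higher and lower). The median log2 difference of the 38 was −0.63, against −0.26 over all genes. This scale rests on the scaling between tissues: on library totals the median of all genes was −1.28. Of the 3 hexokinases, Hk1 and Hk2 were lower in liver. The log2 difference (liver minus eWAT) was −5.11 (adjusted p = 4.35e-10, SE 0.47) for Hk2, −6.68 (adjusted p = 3.00e-10, SE 0.59) for Slc2a4, −4.80 (adjusted p = 1.23e-13, SE 0.35) for Pfkp and −3.86 (adjusted p = 4.63e-17, SE 0.22) for Pkm. All 5 pentose phosphate genes were lower, from −1.24 for Taldo1 to −4.54 for G6pdx. Also lower were Hk1, Pfkl, Aldoa, Ldhb, Pdha1, Dlat, Pdk3, Pdk4, Pfkfb3 and Slc2a3, between −5.23 and −0.67.

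Higher in liver were Pklr, Aldoc, Pgk1, Pdk1, Pdk2, Pfkfb1, Gapdh, Ldha and Tpi1. Pklr had 64.6 ± 15.6 CPM (SD, n = 4) in liver and 0.0931 ± 0.186 in eWAT, where 1 library of 4 held a count. Pdk1 differed by 1.38 (adjusted p = 2.44e-07, SE 0.20), and Pgk1 (phosphoglycerate kinase) by 2.36 (adjusted p = 2.91e-05, SE 0.45). Pgk1 held few counts in both tissues, at means of 1.56 CPM over the eWAT libraries and 5.08 over the liver libraries used. Tpi1 (0.63), Gapdh (0.78), Ldha (0.71), Pdk2 (0.86) and Pfkfb1 (0.81) turned to −0.39, −0.24, −0.29, −0.15 and −0.22 on library totals, so the tissue that held more of them depended on the scaling. Pdk1 did not pass on library totals (adjusted p = 0.0989), and among the genes lower in liver Pdk4 did not pass without eWAT Veh NPD replicate 2 (adjusted p = 0.223). The genes that did not pass were Hk3, Gpi1, Pfkm, Pgam1, Eno1, Eno3, Pdhb, Pfkfb2, Slc2a1 and Slc16a1. Of these, Gpi1, Pfkm, Eno1, Eno3, Pdhb, Slc2a1 and Slc16a1 were called lower in liver on library totals. Their log2 differences there lay between −1.45 (Pfkm) and −0.59 (Pdhb), with adjusted p up to 0.0232. Whether these genes differed between the tissues thus depended on the scaling too.

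Of the 38 genes, several passed no test of cort or diet in either tissue with edgeR. They were Hk3, Pfkm, Pfkp, Pgk1, Pgam1, Eno3, Ldhb, Pdk4, Pfkfb1, Pfkfb2, Tkt, Rpia, Slc2a1, Slc2a3 and Slc16a1. Of these, Pfkp was called in liver for cort on the HPD by DESeq2, at −1.66 (adjusted p = 0.0482), with the replicate block (adjusted p = 0.0378) and with all liver libraries (adjusted p = 0.0223), at a level of at most 2.43 CPM in any library used. DESeq2 called Pgam1 there, as given above, and Tkt was called in liver on the NPD without Cort NPD replicate 3, at 0.72 (adjusted p = 0.0388). Slc16a1 (MCT1, the lactate and pyruvate transporter) had group means of 73.4 ± 16.8 CPM (SD, n = 4) in Veh NPD eWAT and 43 ± 12.2 in Cort HPD eWAT, and its log2 fold change under cort was −0.42 on the NPD and −0.36 on the HPD. Tkt ranged widely in eWAT, from 87.1 to 507 CPM over the 16 libraries. It stood at 487, 349.8, 203 and 400.5 CPM in Veh NPD and 87.1, 161, 133 and 208 in Cort HPD. In Veh HPD replicate 4 it stood at 507 CPM, and in the rest of that group at 129 to 190. For Slc16a1 and Tkt, the Veh NPD and Cort HPD values differ by both cort and diet, and no test compared these groups. Pdk4, the kinase that fasting and glucocorticoids are known to induce, stood in eWAT at 6.05, 64.8, 9.48 and 14.5 CPM in Veh NPD, 5.90, 25.9, 21.1 and 7.40 in Veh HPD, 15.6, 39.1, 12.1 and 10.8 in Cort NPD and 32.5, 18.5, 11 and 6.37 in Cort HPD. Its libraries overlapped in all of these comparisons, and its log2 fold changes under cort were −0.28 (adjusted p = 0.910, SE 0.80) on the NPD and 0.17 (adjusted p = 0.947, SE 0.81) on the HPD.

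Low counts set what could be seen for the rest. Hk3, Pgk1, Pfkfb2 and Aldoc in eWAT had group means of at most 6.28 CPM, and Aldoc stood at 24.3 CPM in Cort HPD replicate 4, the library with epididymis RNA. In liver Hk1, Hk2, Hk3, Pfkp, Ldhb, Pdk3, Pfkfb2 and Slc2a4 had group means of at most 2.15 CPM, and of these Slc2a4 alone passed a test of cort or diet there with edgeR.

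A further 30 genes of the same pathways were used for comparison, 25 of them tested in eWAT and 23 in liver. In eWAT cort raised 5 and lowered 0 on the NPD (4.05% and 3.93% of all genes tested), and raised 2 and lowered 1 on the HPD (3.46% and 2.63%). Those with the smallest p on the NPD were Rpe (ribulose-phosphate epimerase of the pentose phosphate pathway), at a log2 fold change of 0.59 (adjusted p = 0.0135, SE 0.15), Mpc2 (a subunit of the mitochondrial pyruvate carrier), at 0.50 (adjusted p = 0.0193, SE 0.14), and Tigar (a phosphatase that lowers fructose 2,6-bisphosphate), at 0.83 (adjusted p = 0.0209, SE 0.23). Tigar rose on the HPD too, by 0.79 (adjusted p = 0.0351, SE 0.23), and Slc16a7 (MCT2, a monocarboxylate transporter) fell by 0.89 (adjusted p = 0.0455, SE 0.27). Bpgm (which makes 2,3-bisphosphoglycerate, above all in red blood cells) rose on the HPD by 1.15 (adjusted p = 0.000312, SE 0.19), with the red blood cell genes given above. Under cort 1 was higher on the HPD and 4 lower (0.204% and 0.283% of all genes tested). Bpgm rose by 1.31 (adjusted p = 0.00124, SE 0.20), while Pcx (pyruvate carboxylase, which replenishes oxaloacetate) fell by 0.91 (adjusted p = 0.00296, SE 0.15) and Mpc1 (the other carrier subunit) fell by 1.06 (adjusted p = 0.00352, SE 0.18).

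In liver cort raised 5 of the 23 and lowered 1 on the NPD (6.84% and 5.79% of all genes tested), and raised 4 and lowered 1 on the HPD (4.75% and 5.14%). Tkfc (triokinase, of fructose breakdown) rose by 2.11 (adjusted p = 1.65e-07, SE 0.20) on the NPD and 1.81 (adjusted p = 9.32e-06, SE 0.22) on the HPD. Pcx, which in liver feeds gluconeogenesis, rose on the NPD by 1.25 (adjusted p = 2.31e-05, SE 0.17), as did Galm (galactose mutarotase) by 0.77 (adjusted p = 0.000372, SE 0.13). On the HPD Bpgm rose by 0.99 (adjusted p = 0.00126, SE 0.18) and Pdp2 (a phosphatase that switches pyruvate dehydrogenase on) fell by 1.28 (adjusted p = 0.00416, SE 0.26). Under cort the log2 difference of Pcx between HPD and NPD was −1.16 (adjusted p = 0.000285, SE 0.17), and that of Bpgm 0.90 (adjusted p = 0.00221, SE 0.17). The cort response was higher in liver than in eWAT for Tkfc and Slc16a7 on both diets and lower for Pdp2, with differences of log2 fold changes of 1.81, 1.65 and −1.39 on the NPD and 1.39, 1.93 and −1.42 on the HPD. The diet without cort and the interaction called 0 of these genes in either tissue by edgeR. At an unadjusted p under 0.05 the diet without cort had 7 of 25 in eWAT (28%, against 8.03% of all genes). In liver it had 1 of 23 (4.35%, against 9.40%). The interaction had 6 in eWAT (24%, against 5.16%) and 2 in liver (8.70%, against 12.1%). Both liver shares were thus below those of all genes.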

How the data were processed

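RNA of eWAT and liver was measured in 32 libraries of 3′ tags (QuantSeq), 1 per mouse and tissue, with 4 mice per group. The table the authors deposited holds raw counts for each Ensembl gene in each library. The submitters' processing notes list R 4.0.3, limma and GRCm38 (mm10). The aligner, the counting program and its use of strand are not given in the sources used here. Groups came from the sample labels. Of the gene identifiers, 47224 had a symbol in GENCODE vM21 and 419 had none. The list of genes and the comparison lists were chosen with earlier results of these data known, and the carbohydrate response element and the scaling by library totals were added after values had been seen.

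The analysis ran in R 4.3.3 and edgeR 4.0.16. After filterByExpr (minimum count 10, minimum total 15) and TMM scaling, groups were fitted without covariates and tested with the quasi-likelihood test, with Benjamini-Hochberg adjustment over all genes tested and a threshold of 0.05. The fits held 16 eWAT libraries (15187 genes), 15 liver libraries (12391 genes) and 31 libraries of both tissues (16482 genes), the last for differences between tissues. CPM was computed on the scaled totals within each tissue. Liver Veh HPD replicate 4 was left out, and was put back as an alternative. The SE was derived from the test, as the size of the log2 fold change divided by the square root of the F statistic. The other alternatives were RLE factors, DESeq2 1.42.0, limma 3.58.1 with voom, no filter, the replicate number as a block, and each library left out in turn. The replicate numbers were checked by the correlation of deviations from the group means, and in 1 comparison, Veh HPD against Veh NPD in liver, all 3 pairs were over 0.1. The p-values judge a difference against the spread between mice within groups. That spread was estimated over all groups of a fit and drawn in part from other genes. Depth covers counting error only. The scripts were tested on simulated data.

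Values in every library are given for up to 6 called genes in each direction of a comparison with the smallest p and for the leading isoform of each family. Others are given by range and counts, and comparison genes up to 3 for each comparison. The last 300 bases of each gene were searched with BLAST 2.17.0 for near copies (at least 100 bases at 98% identity). Of the 38 genes, 7 had one: Gapdh 69, Eno1 and Ldha 2 each, and Gpi1, Ldhb, Pkm and Tpi1 1 each. Protein-coding genes on the opposite strand overlap Hk3, Pfkm, Pfkp, Aldoa, Tpi1, Gapdh, Pklr, Pdha1, Pfkfb1, Pfkfb2 and G6pdx, and reads of such pairs cannot be told apart if strand was not used. Protein sequences were not used here. Some genes of the comparison list are not reported here.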

Additional observations from a re-analysis of the deposited data

Results flagged for a closer look

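Of 259 groups of 4 libraries tested, 24 held 1 library whose gap to the nearest of the other 3 took most of the group's range. Such a gap can be small where the group is tight. About 1 in 20 would be flagged if values were normal and independent. The genes share libraries here, so the 24 were not set against chance. Of these, 8 were in eWAT Veh HPD replicate 4, the highest of its group for Pfkl (75.1 CPM), Aldoa (983), Pdha1 (335), Pdhb (355), Dlat (129.7), Tkt (507), Taldo1 (557) and Slc2a4 (164). In eWAT, Veh NPD replicate 2 was high for Pdk4 (64.8 CPM) and Pfkfb2 (3.20), and Cort HPD replicate 4 was high for Aldoc (24.3). Pkm in eWAT Cort HPD replicate 2 (195 CPM) was also flagged, against 183 to 185 CPM in the rest of its group.

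In liver, Cort NPD replicate 3 was high for Hk2 (4.24 CPM), Eno3 (9.08) and Ldhb (4.62), the library with the highest sum of skeletal muscle genes, 478 CPM. Veh NPD replicate 2 was high for Hk1 (2.44 CPM) and Hk2 (2.55). The other libraries that stood apart in liver were Veh NPD replicate 3 for Gapdh (39.3 CPM), Veh NPD replicate 4 for Dlat (34.7), Cort NPD replicate 1 for Pkm (5.46), Cort NPD replicate 2 for Tpi1 (177), Cort HPD replicate 1 for Pgk1 (10.3), Cort HPD replicate 2 for Ldhb (1.57) and Cort HPD replicate 3 for Pdk3 (0.689).

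Responses that differed between tissues by a test of the difference itself (liver minus eWAT, log2) were those of cort on the NPD for Gpi1 (1.13), Ldha (−0.83) and Dlat (−1.03), of cort on the HPD for Pfkfb3 (−2.95) and G6pdx (−3.43), and of the diet under cort for Tpi1 (0.68) and Gapdh (1.09). In the left-out liver library, Pfkp (11.9 CPM) and Slc2a1 (19.5 CPM) were more than 2 times the highest value of the 15 other liver libraries, and in all 6 genes of the 38 were above and 4 below those 15.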

How the results depend on the processing

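Leaving out 1 library at a time gave 9 to 14 called genes for cort on the NPD in eWAT, 6 to 13 for cort on the HPD, 1 to 3 for the diet with veh, 2 to 6 for the diet under cort and 0 for the interaction. In liver the ranges were 5 to 9, 4 to 9, 0, 1 to 3 and 0. Differences between tissues ranged over 2 to 3 (cort, NPD), 2 to 4 (cort, HPD) and 1 to 3 (diet under cort), and the level by tissue over 27 to 28.

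Counts moved by over 1.5 times for the diet with veh in eWAT (1 gene; DESeq2 3, no filter 2) and for the difference between tissues of cort on the HPD (2 genes; DESeq2 6, all liver libraries 5). With all liver libraries, cort on the NPD in liver gave 5 genes in place of 9 and the diet under cort 1 in place of 2. The difference between tissues of the diet under cort gave 1 in place of 2 with no filter and 1 on library totals. Over the values of genes called in the main fits, 1066 kept direction and call, 129 lost the call and 5 turned: the levels by tissue of Tpi1 (−0.39), Gapdh (−0.24), Ldha (−0.29), Pdk2 (−0.15) and Pfkfb1 (−0.22) on library totals, by the scaling itself. Calls gained in other fits are not in these numbers. An example is Hk2 for liver minus eWAT of cort on the NPD, at −2.28 (adjusted p = 0.00269) without liver Cort NPD replicate 3. The cause of the other changes was not tested.

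Same-numbered libraries deviated together with r over 0.1 in 1 of 24 pairs in eWAT (−0.10 to 0.24), 6 of 21 in liver (−0.16 to 0.24) and 2 of 15 across tissues (−0.02 to 0.15). Across tissues r was positive in every pair but that of Cort HPD replicate 2. Such small correlations cannot decide whether the numbers pair the samples. The fit of both tissues held no term for the mouse and treated eWAT and liver libraries as independent. In 1 comparison, the diet with veh in liver, all 3 pairs were over 0.1 (0.12 to 0.18), and the block called 0 genes there too. With the replicate block the counts were 14, 9, 1, 6 and 0 in eWAT and 10, 8, 0, 2 and 0 in liver, in the order above. Some calls changed under these counts. For cort on the HPD, Eno1 was lost and Slc2a4 gained in eWAT, and Pklr and Pdhb were lost and Pfkp gained in liver. For cort on the NPD in liver, Pgd was gained. Depth limits Hk1, Hk2, Hk3, Pfkp, Ldhb, Pdk3, Pfkfb2 and Slc2a4 in liver, where a library held few counts of each.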
